A study of Mus musculus with 6 samples.

Results

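The 9 genes described here encode the MYC family and its MAX network: the activators Myc, Mycn and Mycl, the shared partner Max, the repressive partners Mxd1, Mxd4, Mxi1 and Mnt, and the large MAX partner Mga. They were chosen by gene symbol and matched by Ensembl ID, and all 9 were found among the 47729 genes counted. All 9 also passed the low-count filter that left 18174 genes for testing. RNA was sequenced from DN1a/b cells, the earliest thymocyte fraction, sorted by flow cytometry from the thymus of C57BL/6 mice, with 2 libraries in each of 3 groups. RBPJ 6 days induced mice, labelled as without RBPJ at first, were given doxycycline for 6 days, first by intraperitoneal injection at 2 mg/ml and then at 1 mg/ml in drinking water. RBPJ uninduced mice are labelled as lacking RBPJ, and Control mice as having kept it throughout. RBPJ is the DNA-binding factor through which Notch receptors act. The alleles, the driver of deletion and of re-expression, the ages, whether RBPJ uninduced or Control mice received doxycycline and the number of mice behind each library are not given in the sources used. The p-values thus reflect the variation among these 6 libraries, and part of it may be technical.

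MYC, MYCN and MYCL are basic helix-loop-helix leucine zipper proteins that bind DNA as dimers with MAX, most strongly at the letters CACGTG, and recruit acetyltransferases to raise transcription of genes for ribosome building, translation and metabolism. MXD proteins, MXI1 and MNT also pair with MAX, bind the same letters and recruit SIN3 and histone deacetylases. The network is therefore usually read as a balance of activating and repressive dimers. MGA joins MAX to a variant polycomb complex. In the thymus Myc is known as a target of Notch signalling, and blood stem and progenitor cells are known to use Myc and Mycn together.

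Total counts ranged from 5098927 to 12932928 per library. Levels between libraries are given as CPM, counts divided by the library total after TMM scaling, which adjusts totals for differences in RNA composition,, and a gene is said to rise, to fall or to have passed where the Benjamini-Hochberg adjusted p of edgeR's quasi-likelihood test was under 0.05. Rbpj was at 198 and 203 CPM in RBPJ 6 days induced libraries, 28.2 and 30 CPM in RBPJ uninduced libraries and 74.1 and 72.9 CPM in Control libraries, 3 groups that did not overlap. Rbpj RNA in uninduced libraries was 2.53-fold below Control and not at 0, and counts per gene do not show whether those reads lie outside the deleted part. Rbpj passed in all 3 comparisons (edgeR adjusted p = 0.00495, 5.07e-04 and 0.0175). Under 13 other settings it passed in 12 for uninduced against Control, 13 for induced against uninduced and 10 for induced against Control libraries. The call in induced against Control libraries was lost when either Control library or RBPJ 6 days induced replicate 2 was left out. None of the 7 markers fixed for DN1 cells was at 0 in any library, and their summed level was 2426 and 2355 CPM in induced, 1356 and 1325 CPM in uninduced and 2806 and 2409 CPM in Control libraries. In uninduced against Control libraries 3 of the 7 fell and none rose, beside 2.93% of all genes that passed lower. The log2 fold change was above 0 for 2 and below 0 for 5. Notch1 averaged 853 CPM in Control and 83.2 CPM in uninduced libraries, while Kit averaged 443 and 514 CPM and Cd24a 137 and 196 CPM. RBPJ uninduced replicate 2 stood apart by its B-lineage markers, 708 CPM summed over 8 genes against at most 37.5 CPM in each other library. Control replicate 2 stood apart by its later thymocyte markers, 639 CPM summed over 8 genes against at most 149.6 CPM in each other library. In bulk RNA, fewer cells of a type and less RNA per cell cannot be told apart.

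Promoter sequence is shown for Mycn and Mxd4, the only members that passed in any comparison. RefSeq windows on GRCm38.p6, covering 250 bases before and 50 after an annotated start, were at hand for 8 of the 9 members, in 10 windows, but not for Myc. The stretches below run 5′ to 3′ on the minus strand and end before the first base of the gene in GENCODE M21. They cover chr12:12941915-12942086 for Mycn, 172 bases, and chr5:34187721-34187960 for Mxd4, 240 bases. Capitals mark TTTGGCGC, letters known from E2F sites, in Mycn and the E-box CACGTG in Mxd4.
Mycn: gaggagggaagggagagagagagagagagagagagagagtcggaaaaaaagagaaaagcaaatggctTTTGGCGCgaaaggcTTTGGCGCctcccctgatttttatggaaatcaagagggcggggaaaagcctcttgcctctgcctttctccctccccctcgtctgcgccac
Mxd4: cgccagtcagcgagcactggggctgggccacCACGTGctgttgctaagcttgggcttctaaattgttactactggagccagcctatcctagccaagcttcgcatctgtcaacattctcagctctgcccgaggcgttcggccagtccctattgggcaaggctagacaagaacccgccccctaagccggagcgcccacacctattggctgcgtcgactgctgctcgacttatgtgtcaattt

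Both strands of each 300-base window were searched. In the Mycn window TTTGGCGC stood at 2 places, beginning 183 and 168 bases before the RefSeq start, and 0.514% of 32851 windows of this length held it, a motif picked after its sequence had been read. TGGGAA, the core letters bound by RBPJ, were in neither the Mycn nor the Mxd4 window and in 25.6% of all windows. Among the members TGGGAA was found in 2 of 3 Mxi1 windows, on the opposite strand, beginning 206 and 28 bases before the start. CACGTG was in the windows of Mxd4 (219 bases before the start), Mnt (123 bases) and Max (3 bases), and in 7.15% of all windows. The 3 motifs did not overlap one another in these windows. A match is a description of letters, and their absence says only that they are not in this window.

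Mycn passed in RBPJ uninduced against Control libraries and Myc did not. Mycn, on the minus strand at chr12:12936093-12941914 (ENSMUSG00000037169), was at 98.1 and 107 CPM in RBPJ 6 days induced libraries, 14.8 and 10.5 CPM in RBPJ uninduced libraries, and 107 and 52.2 CPM in Control libraries. Both uninduced libraries were far below every other library, while the induced libraries lay within or beside the span of the Control libraries. Mycn averaged 12.6 ± 3.04 CPM in uninduced and 79.4 ± 38.5 CPM in Control libraries (SD, n = 2 each), a 6.36-fold fall (log2 fold change -2.67, SE 0.355, edgeR adjusted p = 0.00405). It averaged 103 ± 6.59 CPM in induced libraries (SD, n = 2), 8.19-fold higher than in uninduced libraries (log2 fold change 3.03, SE 0.359, edgeR adjusted p = 0.00517). Between induced and Control libraries the log2 fold change was 0.37 (SE 0.323, edgeR adjusted p = 1), which did not pass. Under 13 other settings Mycn passed each time in uninduced against Control (log2 fold change between -3.18 and -2.03) and in induced against uninduced libraries (between 2.81 and 3.35). Without Control replicate 2 the fall was -3.18, and without RBPJ uninduced replicate 2 it was -2.46.

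Myc, on the plus strand at chr15:61985391-61990374 (ENSMUSG00000022346), was at 227 and 239.5 CPM in induced, 309 and 243 CPM in uninduced, and 247 and 146 CPM in Control libraries. The 3 groups lay close together, with the 2 Control libraries the farthest apart of any pair and uninduced replicate 1 the highest of all. Its mean was 233 ± 8.84 CPM in induced, 276 ± 47.2 CPM in uninduced and 197 ± 71.5 CPM in Control libraries (SD, n = 2 each). None of its comparisons passed: the log2 fold change was 0.48 in uninduced against Control (SE 0.25, edgeR adjusted p = 0.348), -0.24 in induced against uninduced (SE 0.249, adjusted p = 0.718) and 0.24 in induced against Control (SE 0.25, adjusted p = 1). Leaving out Control replicate 1 gave 0.94 for uninduced against Control, and leaving out Control replicate 2 gave 0.07. These were the highest and lowest values among the fits with 1 library left out. Myc did not pass under any of the 13 other settings.

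The contrast of the paralogs was taken within each library as log2 of the ratio of Mycn to Myc CPM, with 0.5 CPM added to each. The ratio was -1.21 and -1.15 in induced, -4.34 and -4.47 in uninduced, and -1.21 and -1.48 in Control libraries. The uninduced libraries were apart from the other 4 by more than any spread within a group, including the group of Control libraries whose CPM of both genes had differed most. The difference of means was -3.06 (SE 0.15) for uninduced minus Control, 3.23 (SE 0.07) for induced minus uninduced, and 0.16 (SE 0.14) for induced minus Control. An exact two-sided permutation test gave p = 0.333 for each of the 3, the smallest that 2 against 2 libraries allow, so the ratio stands as a description.

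**Figure D1:**
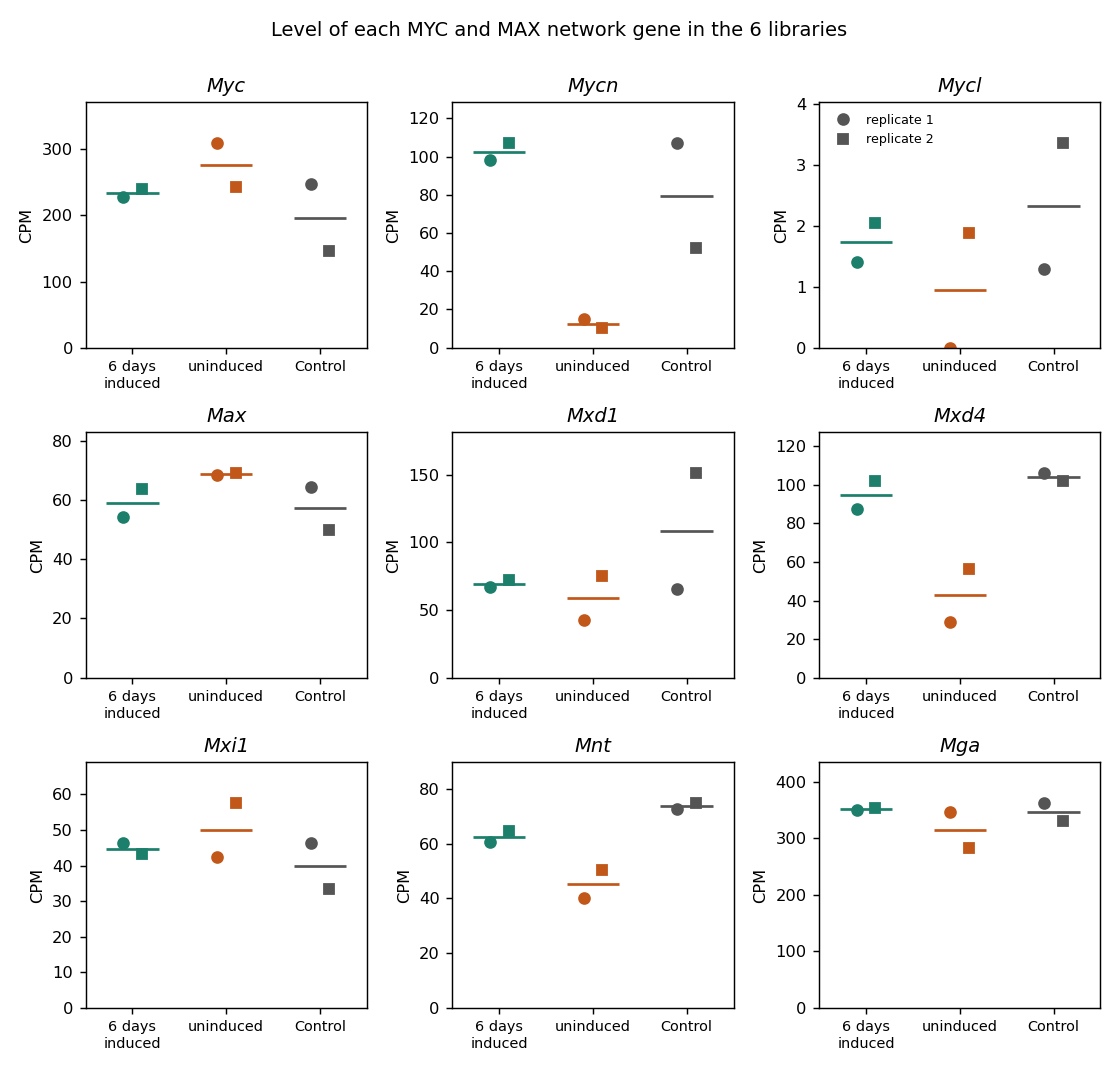
Level of each of the 9 genes in CPM, 1 panel a gene with its own linear axis, for RBPJ 6 days induced, RBPJ uninduced and Control libraries; circles are replicate 1, squares replicate 2 and lines group means. Mycn sits at 14.8 and 10.5 CPM in uninduced libraries and at 52.2 CPM or more in the other 4, while Myc lies between 146 and 309 CPM throughout.

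Mycl, the third family member, on the plus strand at chr4:122995652-123002485 (ENSMUSG00000028654), was close to the limit of counting. It had 16 and 22 counts in induced, 0 and 17 counts in uninduced, and 17 and 19 counts in Control libraries, equal to at most 3.36 CPM. The 0 in RBPJ uninduced replicate 1 allows a level of up to 0.522 CPM by a floor of 3 counts, for counting error only. No comparison of Mycl passed (lowest edgeR adjusted p = 0.793).

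Of the 9 members, 2 fell and none rose in uninduced against Control libraries, beside 5.42% of all genes tested that passed and 2.93% that passed lower. The median log2 fold change was -0.70 over the members and -0.02 over all genes. The other member that fell was Mxd4, on the minus strand at chr5:34173883-34187720 (ENSMUSG00000037235), which encodes a MAX-bound repressor linked to cells that stop dividing. It was at 87.3 and 102 CPM in induced, 29 and 56.4 CPM in uninduced, and 106 and 102 CPM in Control libraries. The uninduced libraries were both below all others, but they differed from each other by nearly as much as the higher of them did from the rest. The fall against Control was 2.42-fold (log2 fold change -1.28, SE 0.294, edgeR adjusted p = 0.0392), and the call was lost without Control replicate 1 (adjusted p = 0.136), without Control replicate 2 (adjusted p = 0.0702) and in a fit of the 4 compared libraries alone (adjusted p = 0.129). The log2 fold change was -1.86 without RBPJ uninduced replicate 2, the library with B-lineage markers, and -0.94 without replicate 1. Mxd4 had, in induced against uninduced libraries, a log2 fold change of 1.14 (SE 0.293, edgeR adjusted p = 0.094), which did not pass, although it did in 4 of 13 other settings. One of these was the fit without RBPJ uninduced replicate 2 (log2 fold change 1.72, edgeR adjusted p = 8.64e-04). Mxd4 shares 514 exon bases with the antisense gene Gm42846, which had at most 6 counts in any library; without a stated strand setting their reads cannot be told apart.

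Of the 9 members, 1 rose (Mycn) and none fell in induced against uninduced libraries, beside 1.96% of all genes that passed and 1.55% that passed higher. The members' median log2 fold change was 0.24, against -0.03 for all genes. In induced against Control libraries none of the 9 passed in edgeR, none had an unadjusted p under 0.05 and none passed in DESeq2, beside 0.187% of all genes that passed in edgeR. The members' median there was 0.02, against -0.02 for all genes.

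The other repressive partners did not pass. Mnt, on the plus strand at chr11:74830920-74845725 (ENSMUSG00000000282), encodes a widely expressed MAX-bound repressor that opposes MYC. It was at 60.4 and 64.5 CPM in induced, 40 and 50.5 CPM in uninduced, and 72.6 and 74.7 CPM in Control libraries, 3 groups that did not overlap. Its log2 fold change was -0.70 in uninduced against Control (SE 0.216, edgeR adjusted p = 0.106) and 0.46 in induced against uninduced libraries (SE 0.216, adjusted p = 0.35). The first of these passed in 4 of 13 other settings, among them DESeq2 (log2 fold change -0.76, adjusted p = 0.0163) and the fit without RBPJ uninduced replicate 2 (-0.89, edgeR adjusted p = 0.0382).

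Mxd1, on the minus strand at chr6:86647042-86669161 (ENSMUSG00000001156), encodes a repressor known from maturing blood cells. It was at 66.9 and 72 CPM in induced, 42.6 and 74.8 CPM in uninduced, and 65.2 and 151 CPM in Control libraries. Its highest value was in Control replicate 2, the library with later thymocyte markers, and its lowest in RBPJ uninduced replicate 1, while the other 4 values lay together. The log2 fold change in uninduced against Control was -0.87 (SE 0.387, edgeR adjusted p = 0.265), and it was -0.25 (adjusted p = 0.784) without Control replicate 2. It passed without RBPJ uninduced replicate 2 (log2 fold change -1.33, edgeR adjusted p = 0.032).

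Mxi1, on the plus strand at chr19:53310518-53375810 (ENSMUSG00000025025), encodes a further repressor of the MXD kind. It was at 46.2 and 43.2 CPM in induced, 42.4 and 57.5 CPM in uninduced, and 46.4 and 33.3 CPM in Control libraries, and the groups overlapped throughout. Its log2 fold change was 0.32 in uninduced against Control (SE 0.267, edgeR adjusted p = 0.602). It shares 194 exon bases with Gm10197 on the opposite strand, which had at most 1 count in any library.

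The shared partner and the polycomb-linked partner did not pass. Max, on the minus strand at chr12:76937269-76962201 (ENSMUSG00000059436), was at 54.3 and 63.6 CPM in induced, 68.3 and 69 CPM in uninduced, and 64.5 and 49.9 CPM in Control libraries. The uninduced libraries were the highest by a narrow margin, and the log2 fold change against Control was 0.26 (SE 0.223, edgeR adjusted p = 0.621). Mga, on the plus strand at chr2:119897228-119969581 (ENSMUSG00000033943), was at 351 and 353 CPM in induced, 347 and 282 CPM in uninduced, and 362 and 330.3 CPM in Control libraries. Its groups overlapped or nearly touched, and the log2 fold change of uninduced against Control was -0.14 (SE 0.172, edgeR adjusted p = 0.773), the smallest in size among the 9.

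**Figure D2:**
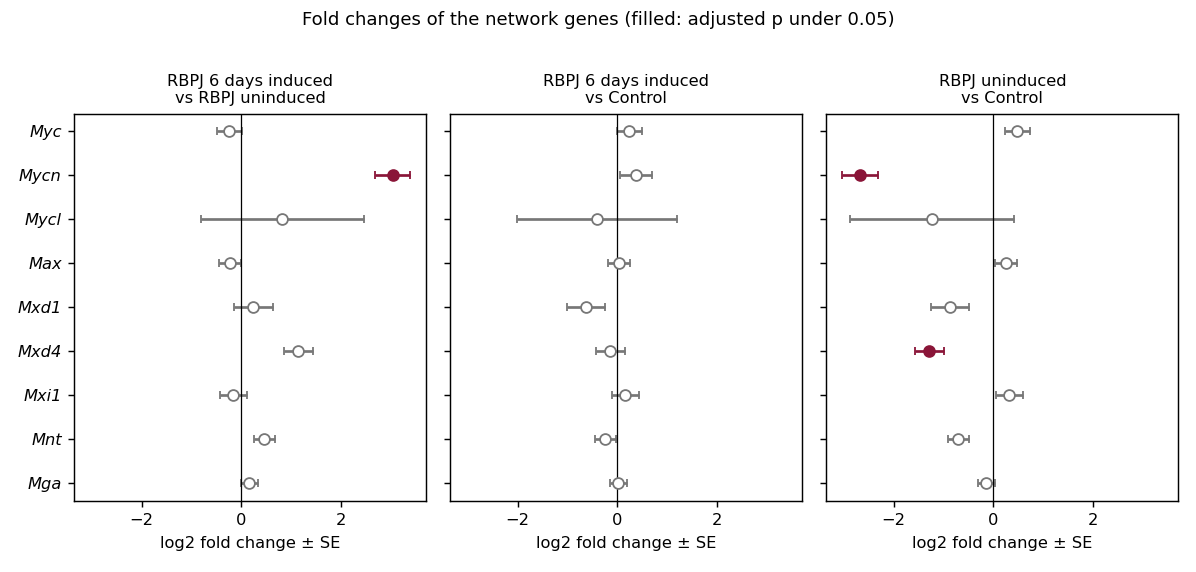
Log2 fold change of each of the 9 genes with its standard error (bars), for RBPJ 6 days induced against uninduced, induced against Control and uninduced against Control; filled points passed an edgeR adjusted p of 0.05. The filled points are Mycn at 3.03 in the first panel and Mycn at -2.67 and Mxd4 at -1.28 in the last, and no point is filled for induced against Control.

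Libraries differed in RNA of other cell types, in part along the groups in which Mycn and Mxd4 changed. Summed over 7 genes, mast cell and basophil markers were at 335 and 343 CPM in induced, 885 and 571 CPM in uninduced, and 83.2 and 69.2 CPM in Control libraries. Neutrophil and monocyte markers, also 7 genes, were at 708 and 1582 CPM in induced, 4336 and 3252 CPM in uninduced, and 538 and 474 CPM in Control libraries. Erythroid markers, 6 genes, were at 147 and 84.1 CPM in induced, 181 and 507 CPM in uninduced, and 5.86 and 16.6 CPM in Control libraries. All 3 sums were highest in uninduced libraries, and they were higher in both induced libraries than in either Control library. At most 1 marker of a list was at 0 in any library. B-lineage markers, 8 genes, were at 8.92 and 37.5 CPM in induced, 25.7 and 708 CPM in uninduced, and 7.01 and 21.9 CPM in Control libraries, with up to 3 markers at 0 in a library. Later thymocyte markers, 8 genes, were at 42.4 and 56.9 CPM in induced, 24.5 and 149.6 CPM in uninduced, and 47.5 and 639 CPM in Control libraries, with 1 marker at 0 in each uninduced library. In uninduced libraries most of this sum was Rag1, which averaged 68.6 ± 81.7 CPM (SD, n = 2). Every other gene of the list averaged 5.89 CPM or less there. Mycn was at 14.8 CPM in RBPJ uninduced replicate 1, where B-lineage markers were low, and at 10.5 CPM in replicate 2, where they were high. That is 1 library each, and mast cell, neutrophil and erythroid markers were above Control in both. The part of RNA of any of these cell types in the changes of Mycn and Mxd4 was not tested.

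Levels of different genes were compared per length, as RPKM, the CPM divided by the length of the exon union in kilobases, which understates a gene whose annotated exons include long stretches seldom used. In induced libraries the mean order was Myc at 85.9, Mycn at 31.2, Mga at 22.9, Max at 16.4, Mnt at 13.5, Mxd4 at 11.2, Mxd1 at 9.82, Mxi1 at 6.55 and Mycl at 0.429 RPKM, and no neighbours overlapped. In uninduced libraries Myc was first at 102 RPKM and Mga and Max followed at 20.5 and 19.1 RPKM. Mycn came eighth there at 3.83 RPKM, behind Mnt at 9.78, Mxd1 at 8.3, Mxi1 at 7.32 and Mxd4 at 5.04 RPKM. Each neighbouring pair between Mga and Mycn overlapped except Max and Mnt. In Control libraries Myc led at 72.4 RPKM, Mycn at 24.1 RPKM overlapped Mga at 22.6 RPKM, and Mnt, Max, Mxd1 and Mxd4 lay between 15.9 and 12.3 RPKM with overlapping neighbours.

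Summed over Myc, Mycn and Mycl, the family was at 114 and 121 RPKM in induced, 118 and 92.9 RPKM in uninduced, and 124 and 70.4 RPKM in Control libraries. These totals overlapped between groups, and the lowest was in Control replicate 2. Mycn made up 26.2% and 26.9% of the family in induced, 3.79% and 3.42% in uninduced, and 26.2% and 22.5% in Control libraries. The share of Mycn did not overlap between uninduced libraries and the other groups. The repressive partners Mxd1, Mxd4, Mxi1 and Mnt summed to 39.6 and 42.5 RPKM in induced, 24.3 and 36.6 RPKM in uninduced, and 44.2 and 54.4 RPKM in Control libraries, lowest in both uninduced libraries.

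**Figure D3:**
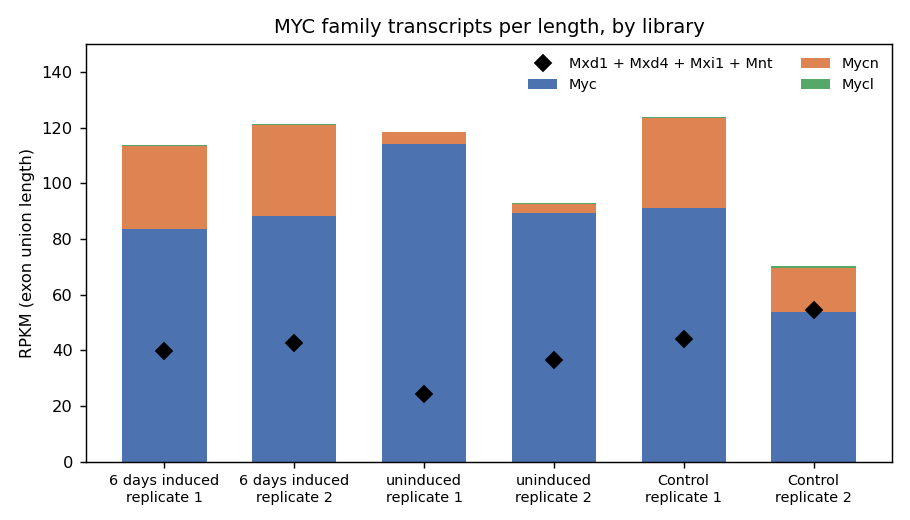
Stacked bars give the RPKM of Myc, Mycn and Mycl in each library, in the order RBPJ 6 days induced, RBPJ uninduced and Control, on a linear axis from 0; diamonds give the summed RPKM of Mxd1, Mxd4, Mxi1 and Mnt. The Mycn segment is 29.8 and 32.6 RPKM in induced, 4.49 and 3.18 RPKM in uninduced, and 32.4 and 15.8 RPKM in Control libraries.

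Genes with a like pattern were ranked by Pearson correlation of log2 CPM over the 6 libraries, among 6974 protein-coding genes whose average log2 CPM was 4 or more, as a description in which all points share their libraries and scaling. The 5 most like Mycn were Arhgap15 (r = 0.9985), Eef2k (0.9984), Hnrnph1 (0.9980), Abl1 (0.9961) and Srpk2 (0.9954). Eef2k, the kinase of translation elongation factor 2, was at 215 and 219.6 CPM in induced, 108 and 99.6 CPM in uninduced, and 228 and 168 CPM in Control libraries, a narrower span than that of Mycn with the same order of groups. The 5 most like Myc were Tmed10 (r = 0.9921), Morc3 (0.9865), Mapk14 (0.9831), St7 (0.9807) and Eya3 (0.9764). Tmed10, a receptor of vesicle transport, was at 97.8 and 101 CPM in induced, 124 and 105 CPM in uninduced, and 109.6 and 74.5 CPM in Control libraries. No gene was on both lists.

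Among genes that MYC proteins are known to activate, all calls between uninduced libraries and the other groups were higher in uninduced libraries. Of 30 such genes, which serve ribosome building, translation, nucleotide and energy metabolism, 7 rose and none fell in uninduced against Control libraries, beside 2.49% of all genes that passed higher. They were Cad, Ldha, Pa2g4, Srm, Bop1, Nolc1 and Slc7a5. This list, like those below, was chosen with earlier results of these data known, so counts beside shares of all genes are descriptions. A total of 28 of the 30 had a log2 fold change above 0, with a median of 0.69 against -0.02 for all genes. Cad, which begins pyrimidine synthesis, was at 107 and 105 CPM in induced, 216 and 270.5 CPM in uninduced, and 113 and 103 CPM in Control libraries. Both uninduced libraries were the highest, and the log2 fold change against Control was 1.17 (SE 0.187, edgeR adjusted p = 0.00887). Ldha, lactate dehydrogenase, was at 149 and 121 CPM in induced, 252 and 269 CPM in uninduced, and 135 and 113 CPM in Control libraries (log2 fold change of uninduced against Control 1.07, edgeR adjusted p = 0.014). Pa2g4, a growth regulator found in ribosome precursors, was at 249 and 219 CPM in induced, 405 and 449.6 CPM in uninduced, and 235 and 191 CPM in Control libraries (log2 fold change 1.00, edgeR adjusted p = 0.0146). The count of 7 was 3 without Control replicate 1, 0 without Control replicate 2 (11 with an unadjusted p under 0.05), 14 without RBPJ uninduced replicate 1 and 0 in a fit of the 4 compared libraries alone (21 with an unadjusted p under 0.05).

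Of these 30 genes 9 fell and none rose in induced against uninduced libraries, beside 0.413% of all genes that passed lower. The log2 fold change was below 0 for 29 of the 30, with a median of -0.80 against -0.03 for all genes. Nolc1, a nucleolar chaperone, was at 176 and 162 CPM in induced, 365 and 521 CPM in uninduced, and 201 and 215 CPM in Control libraries. It was lowest in both induced libraries, and its log2 fold change was -1.39 (SE 0.203, edgeR adjusted p = 0.0128). Slc7a5, an amino acid transporter, was at 38.6 and 39.2 CPM in induced, 93.9 and 107 CPM in uninduced, and 40.7 and 50.4 CPM in Control libraries (log2 fold change of induced against uninduced -1.37, edgeR adjusted p = 0.0178). Cad had a log2 fold change of -1.20 (edgeR adjusted p = 0.0165). Without either induced library the count of 9 was 0 (19 with an unadjusted p under 0.05 without replicate 1 and 10 without replicate 2). It was 16 without RBPJ uninduced replicate 1, and 0 in a fit of the 4 compared libraries alone (23 with an unadjusted p under 0.05). The comparison shares its uninduced libraries with the one before it.

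None of the 30 passed in edgeR in induced against Control libraries, beside 0.187% of all genes that passed. There was 1 at an unadjusted p under 0.05, and 1 was called by DESeq2. That gene, Hspd1, a mitochondrial chaperone, was at 296 and 273 CPM in induced, 499 and 662 CPM in uninduced, and 400.3 and 506 CPM in Control libraries (log2 fold change of induced against Control -0.67, edgeR adjusted p = 0.431). The median over the list was -0.11 against -0.02 for all genes.

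Cell cycle genes, also listed with earlier results of these data known, moved with this list. Summed over 14 markers they were at 2339 and 1991 CPM in induced, 3382 and 4115 CPM in uninduced, and 2095 and 2002 CPM in Control libraries. Of the 14, 7 rose in uninduced against Control libraries (median log2 fold change 0.86), beside 2.49% of all genes that passed higher. This count was 0 without Control replicate 1, 0 without Control replicate 2, 4 without RBPJ uninduced replicate 2, 3 without either induced library, 0 in a fit of the 4 compared libraries alone and 9 by DESeq2, with 8 or more at an unadjusted p under 0.05 each time. In induced against uninduced libraries 3 of the 14 fell (median -0.92), beside 0.413% of all genes that passed lower. That count was 0 without either induced library, 7 without RBPJ uninduced replicate 1, 0 in a fit of the 4 compared libraries alone and 9 by DESeq2, with 5 or more at an unadjusted p under 0.05 each time. The MYC-activated genes themselves summed to 6315 and 5460.3 CPM in induced, 8822 and 10242 CPM in uninduced, and 6749 and 5860.4 CPM in Control libraries. Both sums were highest in both uninduced libraries. The part of cell cycle and of myeloid cell RNA in the changes of MYC-activated genes was not tested.

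**Figure D4:**
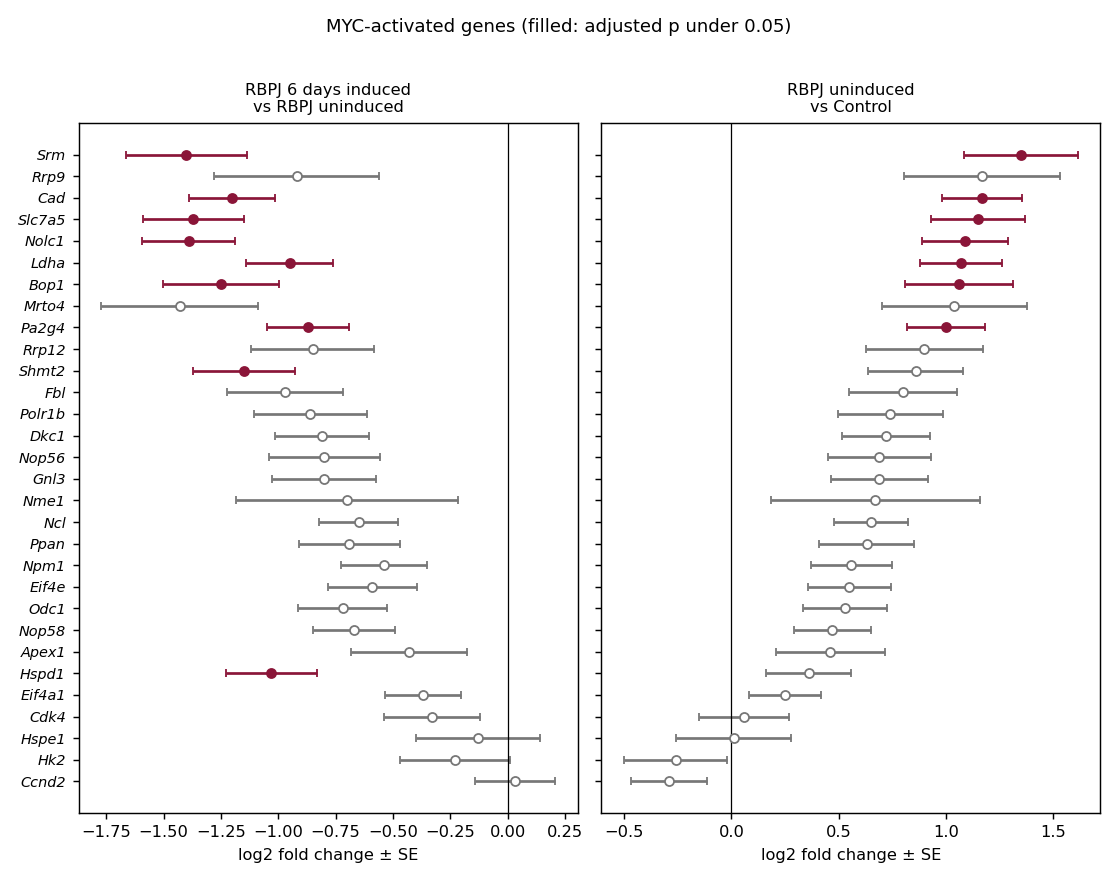
Log2 fold change with its standard error (bars) of the 30 MYC-activated genes, for RBPJ 6 days induced against uninduced on the left and uninduced against Control on the right; filled points passed an edgeR adjusted p of 0.05. On the left 29 genes lie below 0 and 9 are filled, and on the right 28 lie above 0 and 7 are filled.

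Of 9 genes known to be repressed by MYC, 8 were tested. In uninduced against Control libraries 1 fell and none rose, beside 2.93% of all genes that passed lower, with 3 of the 8 above 0 and a median log2 fold change of -0.16, or 0.16 without Control replicate 2. DESeq2 called 1 lower and 1 higher there. In induced against uninduced libraries 1 rose and none fell, beside 1.55% of all genes that passed higher, with a median of 0.43. The gene called in both was Btg1, which restrains proliferation, at 242 and 209 CPM in induced, 79.6 and 123 CPM in uninduced, and 215 and 240.2 CPM in Control libraries. Both uninduced libraries were below all others. The log2 fold change was -1.17 in uninduced against Control (SE 0.227, edgeR adjusted p = 0.0207) and 1.15 in induced against uninduced libraries (SE 0.227, adjusted p = 0.0387). The first call was lost without Control replicate 1 (edgeR adjusted p = 0.0543) and the second without RBPJ 6 days induced replicate 1 (adjusted p = 0.178), and neither passed in a fit of its own 4 libraries (adjusted p = 0.0895 and 0.0978). Gadd45a, a stress gene linked to growth arrest and added after its values were seen, lay in the other direction, at 11.3 and 20.3 CPM in induced, 19.3 and 32.8 CPM in uninduced, and 11 and 6.19 CPM in Control libraries (log2 fold change of uninduced against Control 1.58, SE 0.463, edgeR adjusted p = 0.0891). None of the 8 passed in edgeR in induced against Control libraries, beside 0.187% of all genes that passed. Of the 8, 2 had an unadjusted p under 0.05 and none passed by DESeq2. The lowest p was that of Ndrg1, at 104 and 104 CPM in induced, 81.9 and 46.5 CPM in uninduced, and 46.1 and 56.1 CPM in Control libraries (log2 fold change of induced against Control 1.03, edgeR adjusted p = 0.344).

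Among 13 cofactors that MYC or MXD proteins recruit, 2 rose and none fell in uninduced against Control libraries, beside 2.49% of all genes that passed higher, with a median log2 fold change of 0.03. DESeq2 called 2 higher and 1 lower. They were Ruvbl2 and Ruvbl1, partner ATPases of chromatin remodelling and acetyltransferase complexes. Ruvbl2 was at 47.9 and 59.4 CPM in induced, 83.8 and 139 CPM in uninduced, and 55.7 and 43.9 CPM in Control libraries (log2 fold change of uninduced against Control 1.16, edgeR adjusted p = 0.0457). Ruvbl1 was at 73.5 and 71.1 CPM in induced, 112 and 122 CPM in uninduced, and 73.3 and 59.1 CPM in Control libraries (log2 fold change 0.82, edgeR adjusted p = 0.0474). Both were highest in both uninduced libraries. Ruvbl2 passed there in 9 of 13 other settings. Its call was lost in a fit of the 4 compared libraries alone, and when either Control library or RBPJ uninduced replicate 2 was left out. The Ruvbl1 call was lost in 9 of 13 other settings, with an adjusted p of 0.34 without Control replicate 2. In induced against uninduced libraries none of the 13 passed in edgeR, beside 1.96% of all genes that passed. Of the 13, 3 had an unadjusted p under 0.05 and 2 were called by DESeq2. Ruvbl2 had the lowest p (log2 fold change -1.06, edgeR adjusted p = 0.0998). In induced against Control libraries none of the 13 passed in edgeR or DESeq2, beside 0.187% of all genes that passed in edgeR. None of the 13 had an unadjusted p under 0.05 in edgeR. The lowest p was that of Zbtb17, the MYC partner MIZ1 (log2 fold change -0.39, edgeR adjusted p = 1).

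Of 10 subunits of the MGA polycomb complex, 1 rose and none fell in uninduced against Control libraries, beside 2.49% of all genes that passed higher, with a median log2 fold change of 0.19. It was Tfdp1, the dimer partner of E2F factors, at 106 and 112 CPM in induced, 191 and 189 CPM in uninduced, and 115 and 93.8 CPM in Control libraries. Both uninduced libraries were the highest, and the log2 fold change against Control was 0.87 (SE 0.185, edgeR adjusted p = 0.0294). Tfdp1 passed there in 8 of 13 other settings. The call was lost in a fit of the 4 compared libraries alone, and when either Control library or either induced library was left out. None of the 10 passed in edgeR in induced against uninduced libraries, beside 1.96% of all genes that passed. Of the 10, 2 had an unadjusted p under 0.05 and 1 passed by DESeq2. Tfdp1 had a log2 fold change of -0.81 there (edgeR adjusted p = 0.0642, and 5.52e-04 by DESeq2). In induced against Control libraries none of the 10 passed in edgeR or DESeq2, beside 0.187% of all genes that passed in edgeR. None of the 10 had an unadjusted p under 0.05 in edgeR. Cbx3, a heterochromatin protein, had the lowest p (log2 fold change -0.21, edgeR adjusted p = 1).

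None of 10 genes that act on MYC protein stability passed in the edgeR fit of all 6 libraries or in DESeq2 in any comparison. Of all genes tested, 5.42% passed in edgeR in uninduced against Control, 1.96% in induced against uninduced and 0.187% in induced against Control libraries. A count of 0 of 10 is near those shares. The absence of calls in this list did not hold in every fit with 1 library left out. At an unadjusted p under 0.05 in edgeR there were 2 in uninduced against Control, 3 in induced against uninduced and 0 in induced against Control libraries. Cip2a, an inhibitor of the phosphatase that destabilises MYC, was at 40.1 and 30.9 CPM in induced, 60.5 and 51.3 CPM in uninduced, and 33.1 and 39.6 CPM in Control libraries. Its log2 fold change was 0.62 in uninduced against Control (edgeR adjusted p = 0.22) and -0.65 in induced against uninduced libraries (adjusted p = 0.246). The lowest p in induced against Control libraries was that of Fbxw7, the ubiquitin ligase subunit that marks MYC for breakdown (log2 fold change -0.28, edgeR adjusted p = 1).

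None of the 4 further network genes, Mxd3, Mlx, Mlxip and Mlxipl, passed in edgeR or DESeq2 in any comparison. A count of 0 of 4 is near the shares of all genes that passed in edgeR. These were 5.42% in uninduced against Control, 1.96% in induced against uninduced and 0.187% in induced against Control libraries. None of the 4 had an unadjusted p under 0.05 in edgeR, and DESeq2 gave 2 such genes in uninduced against Control libraries. Mlxip, a MLX partner that responds to glucose metabolites, was at 147 and 149 CPM in induced, 107 and 127 CPM in uninduced, and 153 and 147 CPM in Control libraries. It was lowest in both uninduced libraries, by a log2 fold change of -0.36 against Control (edgeR adjusted p = 0.324), and induced against uninduced libraries gave 0.34 (adjusted p = 0.416). Mlxipl had 6 and 1 counts in induced, 0 and 2 counts in uninduced, and 32 and 11 counts in Control libraries. Its log2 fold change in uninduced against Control libraries was -4.04 (SE 2.3, edgeR adjusted p = 0.401). It did not pass in induced against Control libraries either (edgeR adjusted p = 1).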

How the data were processed

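The authors deposited raw read counts for each Ensembl gene, 1 file a library, without normalization. HISAT2, StringTie, HTSeq and build mm10 are named, without roles, per the submitters' processing notes; the sources used here give neither strand setting nor annotation. GENCODE M21 (GRCm38) supplied symbols, coordinates and exon lengths for 47310 gene IDs.

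In R 4.3.3, edgeR 4.0.16 kept 18174 genes (filterByExpr, minimum count 10, minimum total 15), applied TMM (factors 0.824 to 1.13) and fitted a quasi-likelihood model with 3 group means to the 6 libraries together, leaving 3 residual degrees of freedom and 1 shared spread. Benjamini-Hochberg values cover all genes tested. Standard errors were derived from the F statistic. The fit was also run on counts simulated from its own means and spreads, which cannot show whether these libraries depart from its model. Libraries of a group differed beyond sampling noise (chi-square per degree of freedom 16.4 to 54.1). Mitochondrial ribosomal RNA took 9.26% to 12.4% of counts, and 16.5% in RBPJ uninduced replicate 2. Copies were searched at 200 bases and 95% identity.

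Members, lists and motifs were chosen with earlier results of these data known. Besides the members, text names Rbpj, up to 3 genes per pathway list and comparison that passed, by smallest p, or 1 where none did, and 5 genes most like Mycn and Myc. The other activated genes that rose, Gadd45a, and the counts and fold change of Mlxipl were added after their values were seen.

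Alternatives were RLE or upper-quartile scaling, no or a stricter filter (50 counts in 2 libraries), a replicate block, the 4 compared libraries alone, each library left out, and DESeq2 1.42.0.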

Additional observations from a re-analysis of the deposited data

How the results depend on the processing

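Genes past the threshold in uninduced against Control libraries, 985 as reported, were 1540 with no filter on low counts, 219 with the 4 compared libraries alone, 1859 by DESeq2 and 445 to 2000 with 1 library left out. They were, in induced against uninduced libraries (357 as reported), 989 with no filter, 564 with the stricter filter, 71 with 4 libraries, 1238 by DESeq2 and 171 to 1374 with 1 library left out. They were, in induced against Control libraries (34 as reported), 304 with no filter, 177 with 4 libraries, 228 by DESeq2 and 30 to 337 with 1 library left out. Of the 9 members, 2 as reported in uninduced against Control, 1 passed with 4 libraries and 1 to 4 with 1 left out. Where 1 passed, in induced against uninduced, there were 2 with no filter, 2 by DESeq2 and 1 to 2 with 1 left out. MYC-activated genes, 7 in uninduced against Control, were 0 with 4 libraries, 11 by DESeq2 and 0 to 14 with 1 left out; the 9 in induced against uninduced were 0, 20 and 0 to 16, and DESeq2 called 1 in induced against Control. The difference in log2 ratio of Mycn to Myc between induced and uninduced libraries, 3.23, was 3.08 with 2 CPM added.

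The directions that turned belonged to values that did not pass. In induced against Control libraries Max (0.04) was -0.02 with RLE, -0.04 with upper-quartile scaling, -0.03 with the stricter filter, -0.01 with 4 libraries and -0.03 by DESeq2. Mga (0.02) was -0.04, -0.06, -0.05, -0.02 and -0.04 under the same settings. With 1 library left out, induced against Control values ran between -0.12 and 0.72 for Myc, -0.09 and 1.03 for Mycn, -0.90 and 0.38 for Mycl, -0.17 and 0.29 for Max, -1.07 and 0.05 for Mxd1, -0.09 and 0.48 for Mxi1, and -0.08 and 0.14 for Mga. In induced against uninduced libraries they ran between -0.07 and 7.02 for Mycl, -0.05 and 0.72 for Mxd1, and -0.31 and 0.09 for Mxi1, and in uninduced against Control libraries between -0.00 and 0.49 for Max. The cause was not tested. Upper-quartile scaling shifted the median of all genes to -0.12 in uninduced against Control and -0.11 in induced against Control libraries, from -0.02 in each. Larger shifts came with no filter, over 35696 genes, at -0.37 and -0.17. Without RBPJ uninduced replicate 2 the median was -0.25 in uninduced against Control libraries. Mycl was not tested under the stricter filter. A group left with 1 library is assumed to vary like the others.

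With the replicate block, 1147, 534 and 108 genes passed in uninduced against Control, induced against uninduced and induced against Control libraries, and 2, 2 and 0 members. Deviations of same-numbered libraries correlated at -0.0407, 0.0107 and 0.0253, so the libraries share a number and no pairing is shown. With 2 libraries a group, the depth of 5098927 counts in the shallowest and 3 residual degrees of freedom limit what could be called.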
